A study of Mus musculus with 2 samples.

Results

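The autophagy machinery described here is a set of 36 genes, out of 16463 genes with values, that encode the core proteins for building an autophagosome and loading it with cargo. The genes were taken from the table by symbol. Messenger RNA was sequenced from unstimulated bone marrow-derived macrophages, which are grown in culture from marrow precursors, of mice labelled C57BL/6J. The TKO library came from mice with the genotype mir-106a~363-/-, mir-106b~25-/- and mir-17~92 flox/flox with Lyz2-Cre, and the WT library from mice labelled WT that carry Lyz2-Cre as well. Lyz2-Cre places the recombinase under the lysozyme M gene, which is active in myeloid cells, so a floxed cluster is removed only in cells where that locus has been active. Marrow cells of both genotypes were kept for 5 days in medium with 10% serum and, at 10%, the supernatant of the fibroblast line L929, which supplies macrophage colony-stimulating factor. The 3 clusters are related copies, and their microRNAs fall into 4 seed families named after miR-17, miR-18 and miR-19 and, as a joint family, miR-25/92. There was 1 library of each genotype, and the labels do not say how many mice it came from. No difference below therefore has a replicate check, no test was run, and every interval covers counting error only.

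Autophagy wraps parts of the cytoplasm in a double membrane and delivers them to lysosomes. The ULK kinase complex starts the process, and a class III phosphatidylinositol 3-kinase marks the forming membrane with a lipid that WIPI proteins bind. ATG9 and ATG2 proteins supply membrane lipid, and a conjugation cascade then attaches small ubiquitin-like proteins of the ATG8 family to it, where cargo receptors dock. Macrophages also use the conjugation cascade on single membranes around engulfed particles, and autophagy receptors deliver intracellular bacteria to the pathway.

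The libraries held 10656465 estimated counts in TKO and 10877917 in WT. Mir17hg, the host transcript of mir-17~92, had 42 counts in TKO and 8 in WT, and Mcm7, which holds mir-106b~25 in an intron, had 1083 counts in TKO and 1228 in WT. Such counts cannot check the deletions, since they cover the whole host gene and polyadenylated RNA holds no mature microRNA. The macrophage label was checked with 8 markers, all past the count minimum. Their summed level was 3790 FPKM (fragments scaled for gene length and library depth) in TKO and 3543 in WT, and none passed the size rule given below. Single macrophage markers went both ways, with 3 intervals above 0 and 4 below. Their log2 ratios of TKO over WT ran from -0.43 for Adgre1 to 0.68 for Fcgr1. Markers of fibroblasts and stroma summed to 28.0 FPKM in TKO and 94.7 in WT, with 5 of 8 markers past the minimum lower by the size rule, 0 of 8 above a ratio of 0 and no listed marker at 0 in either library. Markers of dendritic cells summed to 22.1 FPKM in TKO and 9.08 in WT, with 3 of 4 higher. Most of this sum was Itgax, at 19.5 FPKM in TKO and 7.75 in WT. Flt3 (27 counts in TKO, 10 in WT) and Dpp4 (22 in TKO, 8 in WT) were higher from few counts. The interval of Xcr1 included 0. Under the minimum, Ccr7 had 14 counts in TKO and 5 in WT, and Zbtb46 had 3 in TKO and 5 in WT. The markers of neutrophils (9.27 FPKM in TKO and 4.65 in WT) and of T and NK cells (0.54 in TKO and 0.49 in WT) were low, and of these Elane and Ncr1 had 0 counts in WT. The neutrophil marker S100a8, the 1 marker of these lists past the minimum, was higher by the size rule, with 21 counts in TKO and 9 in WT, and Mpo had 18 counts in TKO and 4 in WT. The part of these cells in the values below was not tested, and in a bulk sample fewer cells of a type and less RNA per cell cannot be told apart.

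Most of the autophagy genes were at similar levels in TKO and WT macrophages. The clear exception was Atg3, the enzyme that transfers ATG8 proteins to lipid, at 2.18-fold the WT level in TKO, followed by Atg16l1 at 1.60-fold. Genes of the conjugation cascade mostly lay above a ratio of 1, while genes of the kinase complexes and of lipid supply mostly lay slightly below it. With the gene-length trend described below subtracted, the median log2 ratio of the cascade was 0.17, in place of 0.22. The ULK complex was then at -0.025 in place of -0.17. The class III kinase complexes were at -0.10 in place of -0.19, and lipid supply at -0.086 in place of -0.16. All 36 genes reached the minimum of 20 counts in 1 library. Calls were made with a size rule, which asks for an absolute log2 ratio of TKO over WT of at least 1 and a 95% counting interval that excludes 0. By this rule 1 of the 36 genes was higher (Atg3), where 2.43% of 11525 genes past the minimum were higher. None was lower, where 2.3% of all genes were lower. The median log2 ratio of the 36 genes was -0.013, beside 0.0043 over all genes, and 18 genes lay above 0 and 18 below, where 50.6% of all genes lay above. The 36 genes included 34 with a ratio within 0.5 of 0 (94.4%), where 83.7% of all genes were. The comparison genes reach down to 20 counts, where counting error spreads ratios more. The fewest counts among the 36 were those of Atg10, at 109 in TKO and 101 in WT. The counting interval lay above 0 for 9 genes and below 0 for 9, which are shares near the 21.8% and 22.7% of all genes.

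**Figure D1:**
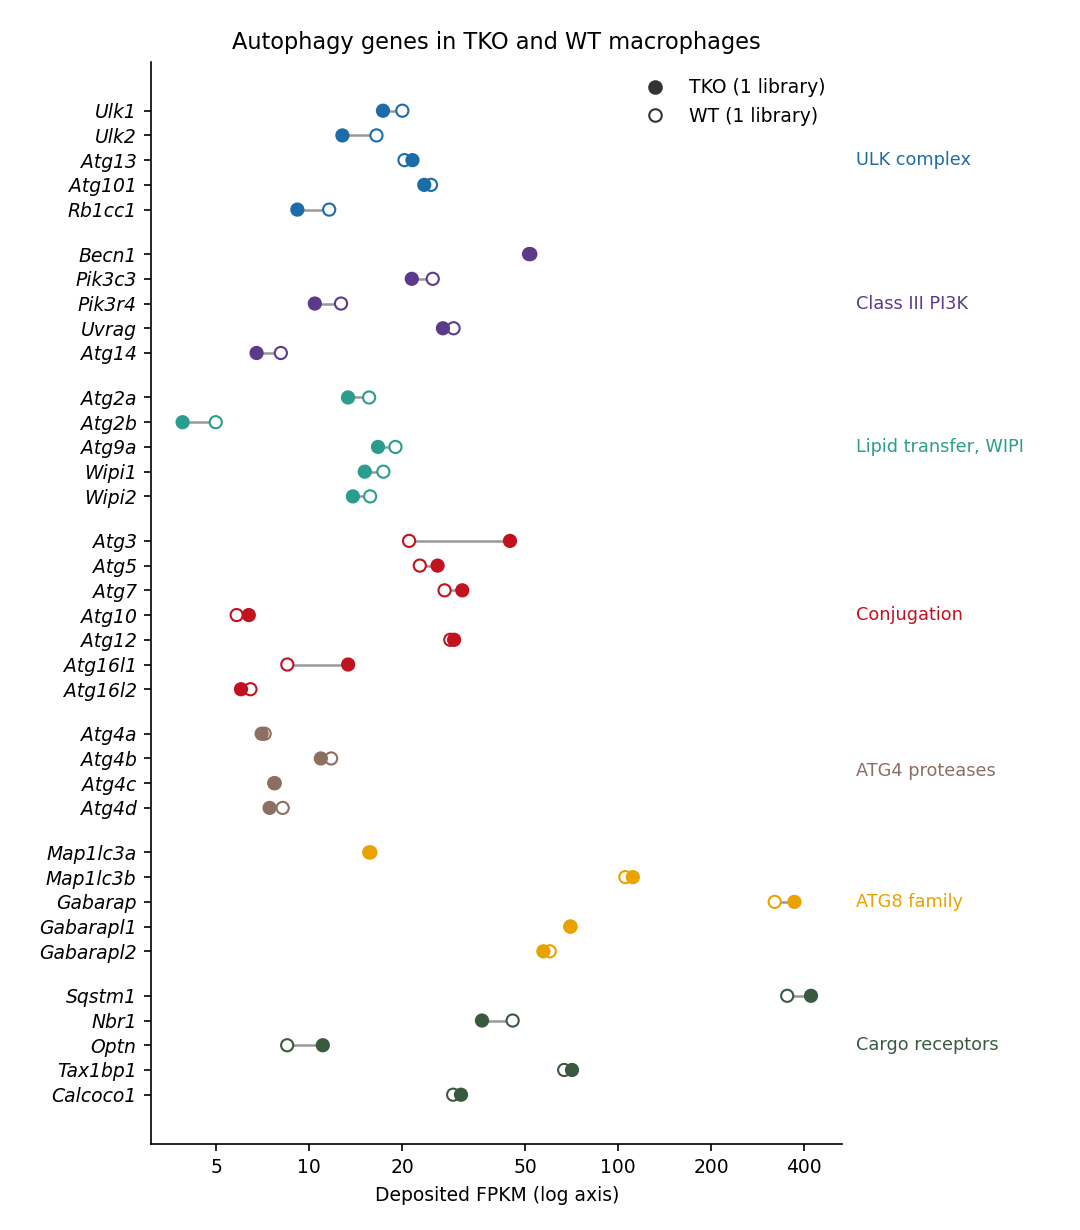
Deposited FPKM of the 36 autophagy genes on a log axis, with filled points for the TKO library and open points for the WT library, joined by a line and grouped by role. Sqstm1 and Gabarap are the most abundant, Atg2b is the least, and the longest lines are those of Atg3 (44.6 in TKO, 21.0 in WT) and Atg16l1 (13.4 in TKO, 8.49 in WT); where a single point is seen the 2 values coincide.

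The levels of the genes spanned a wide range, with the same genes at both ends in TKO and WT. Sqstm1 was the most abundant, at 421 FPKM in TKO and 352 in WT, and Gabarap followed at 372 in TKO and 321 in WT. Atg2b was the least abundant, at 3.89 FPKM in TKO and 4.98 in WT. The median gene of the set stood at percentile 64.3 of all genes past the minimum by mean FPKM, so the set is made up mostly of well-expressed genes. The summed level of the 36 genes was 1651 FPKM in TKO and 1524 in WT. The sum over all 16463 genes was also higher in TKO, at 481511 FPKM against 449683 in WT. The ATG8 family made up 626 FPKM of this sum in TKO and 573 in WT, and the cargo receptors 570.0 in TKO and 503 in WT.

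The ULK complex, which receives nutrient signals and starts autophagosome formation, had 0 of 5 genes past the size rule in either direction. Of the 5, 4 lay below 0, where 50.6% of all genes lay above 0. Ulk2, a kinase of the complex, had 802 counts in TKO and 1054 in WT. Its log2 ratio of -0.33 (-0.46 to -0.19) was the lowest of all 36 genes. Ulk1, its paralog, had 973 counts in TKO and 1146 in WT, a log2 ratio of -0.17 (-0.30 to -0.046). Per length, Ulk1 made up 57.5% of the kinase pair in TKO and 54.8% in WT, so the transcripts of both kinases were at similar levels. Rb1cc1, which encodes the large scaffold FIP200, had 696 counts in TKO and 899 in WT, a log2 ratio of -0.30 (-0.45 to -0.16). Atg13, the adaptor that links kinase and scaffold, had 828 counts in TKO and 795 in WT. Atg101, the partner that stabilises Atg13 and the most abundant of the complex, had 23.6 FPKM in TKO and 24.8 in WT, from 305 counts in TKO and 327 in WT. The intervals of Atg13 (log2 ratio 0.12) and Atg101 (-0.035) included 0.

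The class III phosphatidylinositol 3-kinase complexes had 0 of 5 genes past the size rule, and the median of their log2 ratios was -0.19. Pik3r4, which encodes the regulatory subunit VPS15, had 548 counts in TKO and 679 in WT, the lowest ratio of the group at -0.24 (-0.41 to -0.079). Pik3c3, the catalytic subunit VPS34, had 714 counts in TKO and 851 in WT, a log2 ratio of -0.19 (-0.33 to -0.042). Becn1, the scaffold Beclin 1 and the most abundant of the group at 51.5 FPKM in TKO and 52.0 in WT, had 1113 counts in TKO and 1146 in WT, a log2 ratio of 0.023. The subunits that set the site of action were also close to WT. Atg14, which directs the complex to forming autophagosomes, had 251 counts in TKO and 307 in WT, a log2 ratio of -0.22 (-0.47 to 0.020). Uvrag, which takes the place of Atg14 in the endosomal complex, had 999 counts in TKO and 1103 in WT, a log2 ratio of -0.077.

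All 5 genes for lipid supply and lipid binding lay below 0, between -0.32 and -0.15, where 50.6% of all genes lay above 0. Of the 5, 0 passed the size rule. Atg2b, a bridge-like lipid transfer protein, had 428 counts in TKO and 558 in WT, a log2 ratio of -0.32 (-0.50 to -0.13). Its paralog Atg2a had 913 counts in TKO and 1089 in WT, a log2 ratio of -0.19 (-0.32 to -0.061). Atg2a made up 77.4% of the pair per length in TKO and 75.8% in WT. The membrane protein gene Atg9a, the most abundant of the group at 16.7 FPKM in TKO and 19.0 in WT, had 690 counts in TKO and 807 in WT, a log2 ratio of -0.16 (-0.31 to -0.012). Wipi1 had 292 counts in TKO and 342 in WT, and Wipi2, which brings ATG16L1 to the membrane, had 582 in TKO and 675 in WT. The intervals of both WIPI genes included 0, and Wipi1 made up 52.2% of the pair in TKO and 52.5% in WT.

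The conjugation cascade differed most, with a median log2 ratio of 0.22. Of its 7 genes, 6 lay above 0, where 50.6% of all genes did. The interval lay above 0 for 4 of the 7, where it did for 21.8% of all genes. Atg3 (Entrez 67841, chr16:45158785-45188538, plus strand, GRCm38) had 957 counts in TKO and 460 in WT, or 44.6 FPKM in TKO and 21.0 in WT. Its log2 ratio was 1.12 (0.96 to 1.29), at percentile 98.0 of all genes, and the level in TKO was 2.18-fold that in WT (1.95 to 2.44). In the authors' deposited table the log2 ratio of Atg3 is 1.09 with an FDR of 5.02e-41, from a test that no source used here describes. By an FDR of at most 0.05 from the authors' deposited table, 6 of the 36 genes are higher and 9 are lower. Over all 16463 genes, 10.8% are higher and 15.6% are lower. That base also holds genes under the count minimum, which 11525 genes pass, as do all 36 autophagy genes. The shares are thus not like for like. Atg3 is the one of the 15 autophagy genes at this FDR with an absolute log2 ratio of at least 1. Atg16l1 (Entrez 77040, chr1:87755870-87792428, plus strand, GRCm38), which positions the conjugating complex on the membrane, had 441 counts in TKO and 288 in WT. Its log2 ratio was 0.68 (0.46 to 0.90), a 1.60-fold level (1.38 to 1.87) that does not reach the size rule. The paralog Atg16l2 had 140 counts in TKO and 153 in WT, at a log2 ratio of -0.063 (-0.40 to 0.28). Atg16l1 thus made up 69.0% of the pair per length in TKO, against 56.8% in WT.

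The other enzymes of the cascade had smaller ratios. Atg7, the activating enzyme that acts before both conjugating enzymes, had 1271 counts in TKO and 1139 in WT, a log2 ratio of 0.22 (0.11 to 0.34). Atg5, to which ATG12 is attached, had 666 counts in TKO and 594 in WT, a log2 ratio of 0.23 (0.069 to 0.39). Both intervals lay above 0, but the ratios were at percentiles 76.9 and 77.4 of all genes and so not far from the middle. Atg12 had 784 counts in TKO and 777 in WT, and Atg10, the conjugating enzyme for ATG12, had 109 in TKO and 101 in WT. Their intervals included 0, so the conjugating enzyme of the ATG8 branch was 2.18-fold in TKO while that of the ATG12 branch had a log2 ratio of 0.18 (-0.23 to 0.58).

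**Figure D2:**
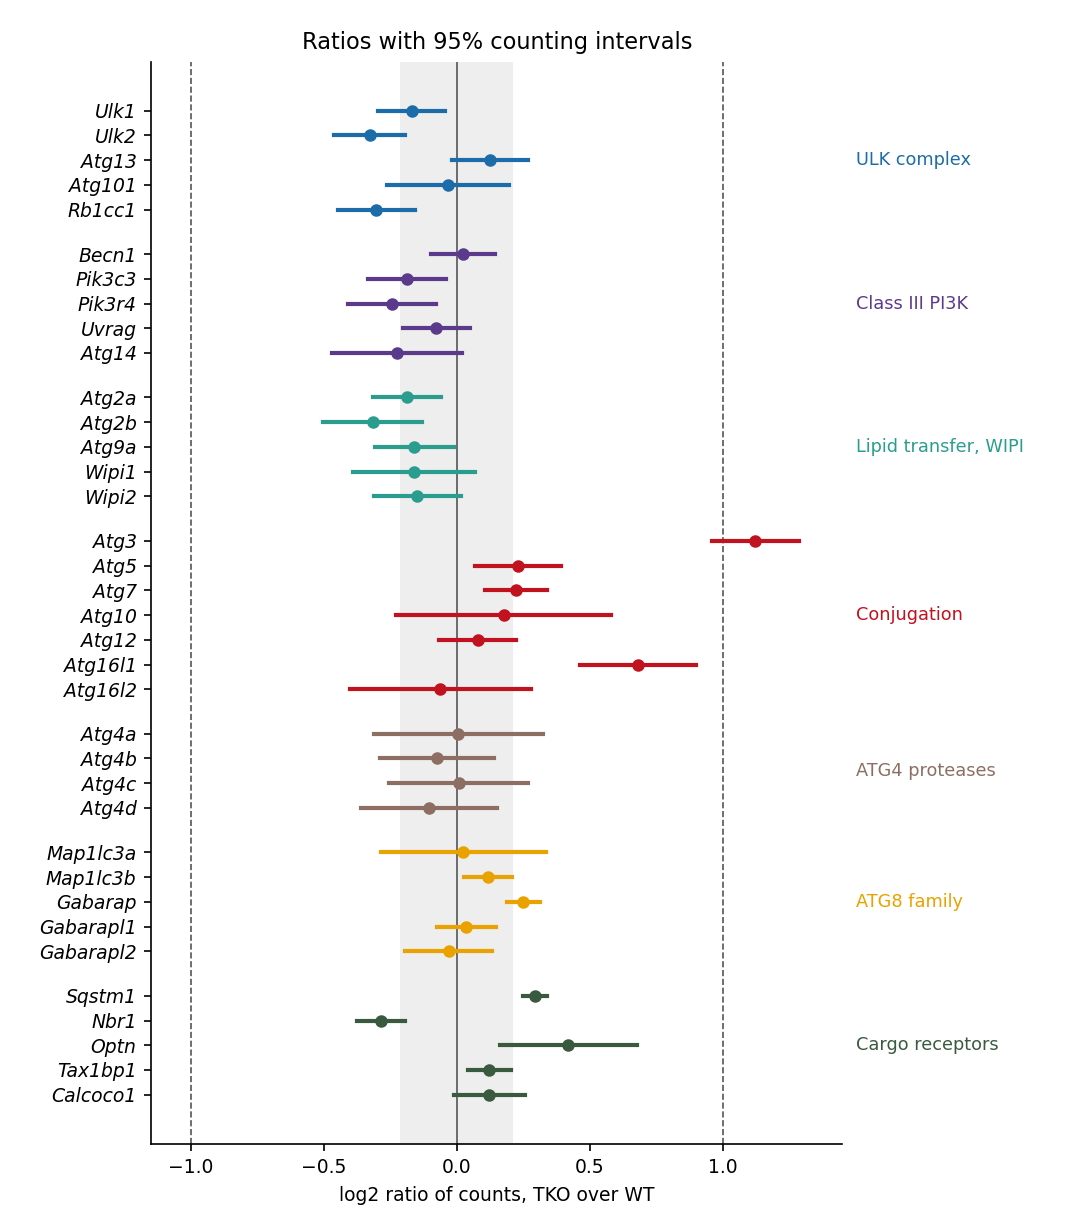
Log2 ratio of counts, TKO over WT, of each autophagy gene with its 95% counting interval, grouped by role; dashed lines mark the size rule of 1 and -1, and the grey band is the interquartile range of all genes (-0.21 to 0.21). Atg3 alone passes a dashed line, and all 5 genes of lipid supply and binding lie left of 0.

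The 4 ATG4 proteases, which trim ATG8 proteins before conjugation and free them from lipid afterwards, were nearly equal in both libraries. Their log2 ratios lay between -0.10 and 0.0062, and all 4 intervals included 0. Atg4b, the most abundant, had 346 counts in TKO and 381 in WT (10.9 FPKM in TKO and 11.8 in WT). Atg4d, with the largest difference of the group, had 241 counts in TKO and 271 in WT, a log2 ratio of -0.10 (-0.36 to 0.15). Atg4a had 164 counts in TKO and 171 in WT, and Atg4c had 238 in TKO and 248 in WT. At these counts a difference as large as that of Atg3 would lie outside each of the 4 intervals.

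The ATG8 family, whose proteins are the substrates of Atg3, had 0 of 5 genes past the size rule, and the median of their log2 ratios was 0.035. Gabarap had 4380 counts in TKO and 3855 in WT, the highest ratio of the family at 0.25 (0.19 to 0.31). Map1lc3b, the LC3 form most used as a marker of autophagosomes, had 2027 counts in TKO and 1955 in WT, a log2 ratio of 0.12 (0.027 to 0.21). The family was dominated by Gabarap, with 59.4% of its summed FPKM in TKO and 56.1% in WT, while Map1lc3b held 17.8% in TKO and 18.4% in WT. Gabarapl1 had 1318 counts in TKO and 1346 in WT, Gabarapl2 had 596 in TKO and 637 in WT, and Map1lc3a had 174 in TKO and 179 in WT. The intervals of these 3 genes included 0.

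The cargo receptors, which bind ubiquitinated or other cargo at one end and ATG8 proteins at the other, had 0 of 5 genes past the size rule. Of the 5 intervals, 3 lay above 0 and 1 below, where 21.8% and 22.7% of all genes had such an interval. Sqstm1, which encodes p62, had 9041 counts in TKO and 7721 in WT, a log2 ratio of 0.29 (0.25 to 0.34). Optn, optineurin, had the largest ratio of the group at 0.42 (0.16 to 0.68), from 285 counts in TKO and 223 in WT. Nbr1, which works together with p62, went the other way, with 1819 counts in TKO and 2320 in WT and a log2 ratio of -0.29 (-0.37 to -0.20). The receptors thus lay on both sides of 0, and Sqstm1 made up 73.8% of their summed FPKM in TKO and 70.1% in WT. Tax1bp1 had 2514 counts in TKO and 2418 in WT, a log2 ratio of 0.12 (0.041 to 0.20), and the related gene Calcoco1 had 942 in TKO and 906 in WT, a log2 ratio of 0.12 (-0.011 to 0.25).

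**Figure D3:**
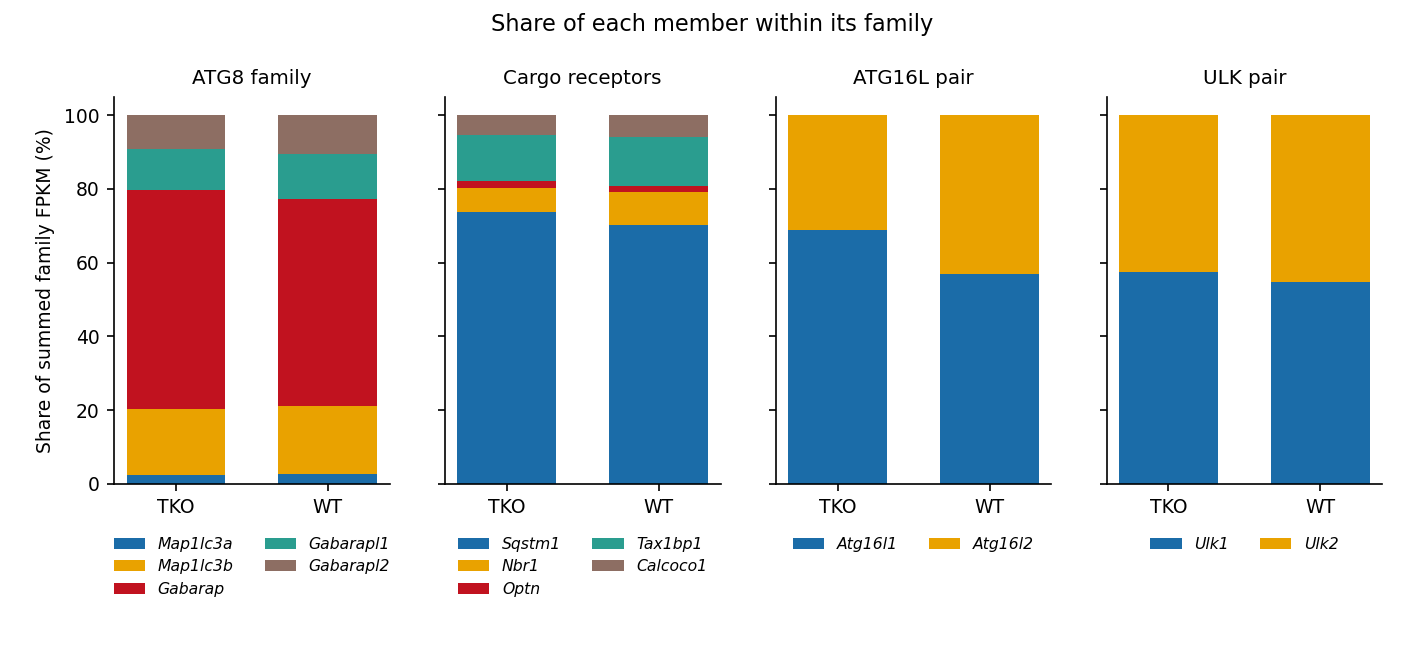
Share of each gene in the summed FPKM of its family, in percent, with the TKO library left of the WT library in each panel. Gabarap and Sqstm1 hold most of their families in both libraries, and the largest shift is that of Atg16l1, at 69.0% in TKO and 56.8% in WT.

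Reads were not stated to be counted by strand, and 11 of the 36 genes share at least 50 exonic bases with a gene annotated on the opposite strand. They are Rb1cc1, Becn1, Uvrag, Atg14, Atg2b, Atg4d, Map1lc3b, Gabarapl1, Sqstm1, Optn and Tax1bp1, and without strand, reads from the shared bases cannot be assigned to 1 gene of the pair. The shared stretch was as short as 58 bases, for Map1lc3b. Atg9a shares exonic bases with a gene on its own strand. The counts of these 12 genes are uncertain to that extent. Atg3 and Atg16l1 are not among them.

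The ratios whose intervals lay below 0 were mostly those of genes with long transcripts. Across the 36 genes the ratio and the deposited gene length had a Spearman correlation of -0.60, and across 11525 genes of the same libraries it was -0.45. All 7 autophagy genes at or above the upper quartile of gene length (4280 bases) lay below 0, with ratios of -0.33 to -0.17, as did 79.1% of 2883 genes of that length. These 7 genes are Ulk1, Ulk2, Rb1cc1, Pik3r4, Atg2a, Atg2b and Nbr1, and their intervals are 7 of the 9 that lay below 0. Among shorter genes 11 of 29 autophagy genes (37.9%) lay below 0, beside 39.5% of all shorter genes. The quartile was chosen as a divider after the values were seen.

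With the smooth trend of the ratio with length over all genes subtracted, the correlation among the 36 genes was 0.093. The number of intervals below 0 was then 4, where 17.6% of all genes had one, and the number above 0 was 9, where 19.1% had one. The intervals below 0 were those of Pik3c3 and Nbr1, as before, and of Wipi1 and Gabarapl2, which included 0 as measured. Among the intervals above 0, that of Atg13 (0.16, 0.021 to 0.31) took the place of that of Map1lc3b. Ulk1 was at 0.00037, Rb1cc1 at -0.025, Atg2a at 0.054 and Atg2b at 0.090, all with intervals that include 0. Map1lc3b, above 0 as measured, was at -0.00083. The 5 ATG8 family genes are short, at 996 to 1773 bases. With the trend subtracted 1 of them lay above 0, in place of 4, and their median was -0.078. That gene was Gabarap, at 0.069 (0.0060 to 0.13). Nbr1 was at -0.16 (-0.25 to -0.071), and Atg3 and Atg16l1 at 1.03 and 0.68. Ulk1, Ulk2, Rb1cc1, Atg2a and Atg2b thus differed from other genes of their length by less than the counting error, while Atg3 kept nearly its whole ratio.

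**Figure D4:**
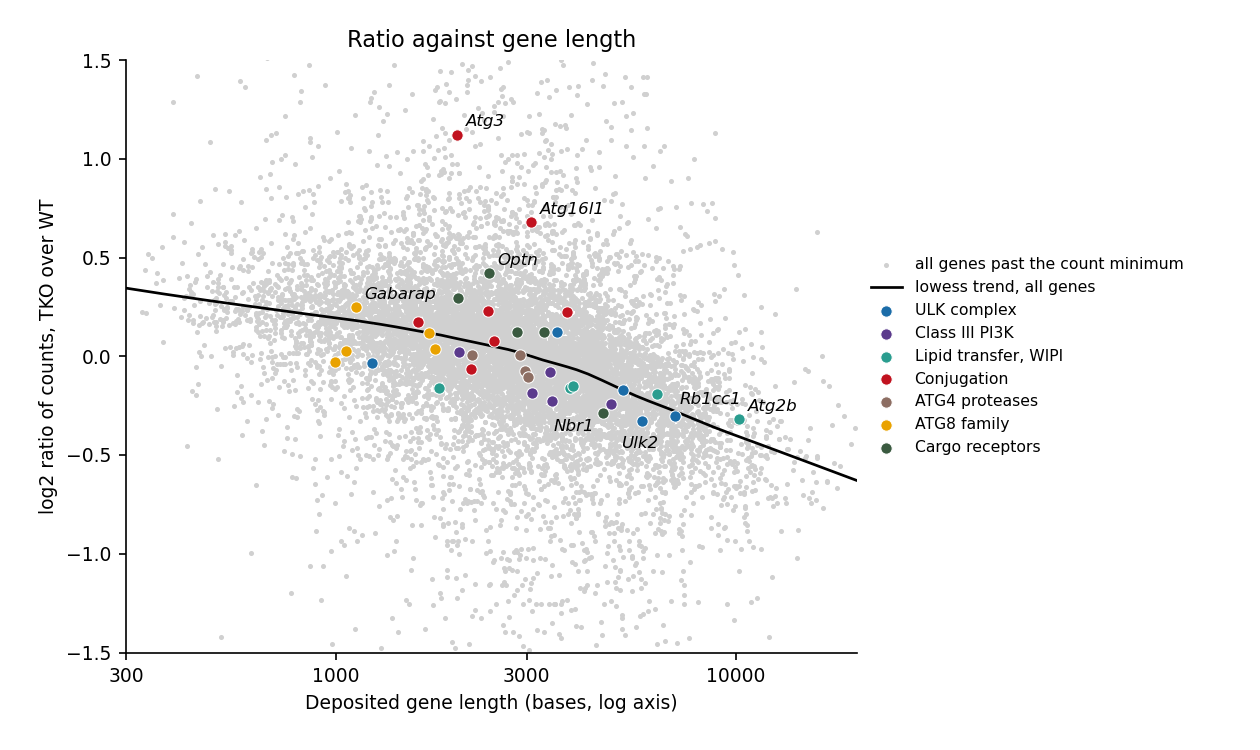
Log2 ratio of counts, TKO over WT, against the deposited gene length in bases on a log axis, with grey points for genes past the count minimum, coloured points for the autophagy genes by role and a black lowess trend over all genes; 229 grey genes lie outside the axes. Ulk1, Rb1cc1 and Atg2b lie near the falling trend, and Atg3 and Atg16l1 lie above it.

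The clusters labelled as deleted encode microRNAs that share seeds, the bases 2 to 8 that pair with a target. The miR-17 family is shown by a microRNA from each cluster, with the seed in capitals (RefSeq, GRCm38.p6), because its seed match was the most frequent among the autophagy genes. The miR-19 seed is shown because its match overlaps that of miR-17 in part.
mmu-miR-17-5p: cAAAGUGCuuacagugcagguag
mmu-miR-106a-5p: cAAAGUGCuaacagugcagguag
mmu-miR-106b-5p: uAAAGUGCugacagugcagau
mmu-miR-19a-3p: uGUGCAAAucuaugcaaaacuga

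The letters that pair with the miR-17 seed, GCACTTT, were found in the longest 3' UTR of 8 of the 36 genes (22.2%), beside 14.9% of 11055 genes. The genes are Ulk1, Rb1cc1 (with a pair of matches), Atg14, Atg2a, Atg2b, Atg7, Atg16l1 and Sqstm1. Among them Ulk1, Atg7, Atg16l1 and Sqstm1 were listed here as published targets of the family, a choice from general knowledge that is not complete. The matches of these 4 genes are shown 5' to 3' on the gene's strand with the match in capitals (GENCODE M21, GRCm38).
Ulk1, chr5:110785670-110785696, minus strand: agtcaccggaGCACTTTatgcatacag
Atg7, chr6:114859890-114859916, plus strand: cggtttaagaGCACTTTattattgttc
Atg16l1, chr1:87792169-87792195, plus strand: cacttactttGCACTTTattttttgct
Sqstm1, chr11:50200147-50200173, minus strand: aatggcatatGCACTTTaaccagccct

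In Atg16l1 the miR-19 match TTTGCAC shares 4 bases with the miR-17 match, and the same holds for a match in Rb1cc1. In all, 5 autophagy genes had a miR-19 match (13.9%, beside 13.4% of all genes), 3 had a miR-18 match GCACCTT (8.33%, beside 9.30%) and 0 had a miR-25/92 match GTGCAAT (7.56% of all genes).

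The 8 genes with a miR-17 match lay on both sides of 0. The ratios of Atg16l1 (0.68), Sqstm1 (0.29) and Atg7 (0.22) lay above 0, and the other 5 lay between -0.32 and -0.17. Their median was -0.18, beside 0.0057 for the 28 autophagy genes without a match. The genes with a match also have longer transcripts, with a median of 4499 bases beside 2453. Over all genes the medians were -0.064 with a match and 0.012 without. With the length trend subtracted they were 0.072 with a match and -0.073 without among the autophagy genes, and 0.018 with and -0.0030 without over all genes. For the other families the autophagy genes' medians with the trend subtracted were lower with a match, at -0.11 against -0.025 for miR-18 and -0.064 against -0.012 for miR-19, from 3 and 5 genes with a match. Atg3, the gene with the largest ratio, had no match to any of the 4 families. With the shorter 6mer match CACTTT of miR-17, the trend-subtracted medians were -0.036 with and -0.038 without among the autophagy genes. Over all genes they were -0.00072 with and 6.6e-05 without, so the 7mer difference was not seen with 6mers. Among the autophagy genes the 6mer medians were -0.047 with and -0.025 without for miR-18, and -0.00083 with and -0.068 without for miR-19. A match describes letters in the annotation, and whether any of them is used in these cells was not tested.

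**Figure D5:**
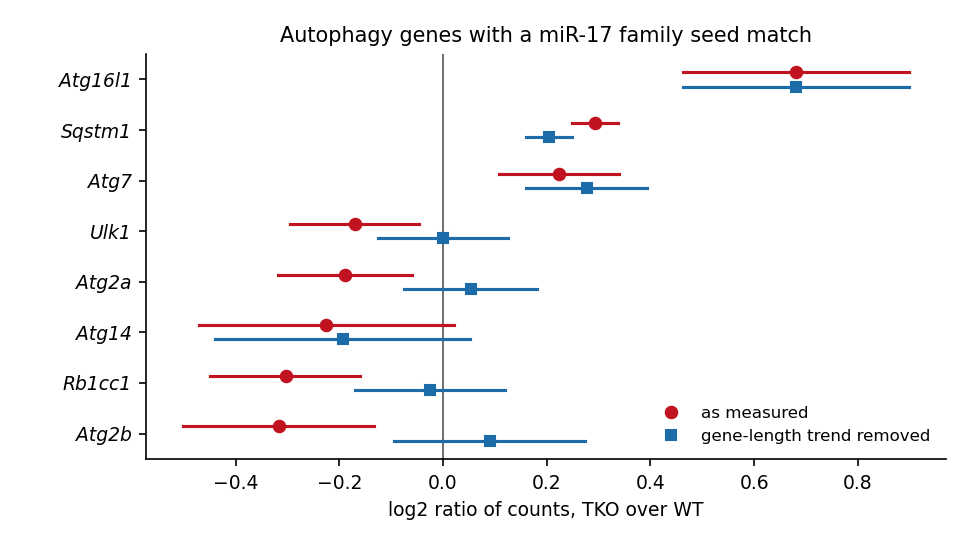
Log2 ratio of counts, TKO over WT, with 95% counting intervals for the 8 autophagy genes with a miR-17 family seed match in the 3' UTR, as measured (red circles) and with the gene-length trend removed (blue squares). Atg16l1, Sqstm1 and Atg7 lie right of 0 both ways, and the other 5 lie left of 0 as measured.

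Promoters were searched for CACGTG, the E-box read by TFEB, TFE3 and MITF, which are transcription factors of autophagy and lysosome genes. The letters are their own reverse complement, so both strands give the same matches. The window ran from 250 bases before to 50 after the start (RefSeq, GRCm38.p6). It was given for 30 of the 36 genes, and not for Atg12, Atg16l1, Rb1cc1, Becn1, Pik3c3 and Map1lc3a. The motif was found in 4 of the 30 (13.3%), namely Atg3, Atg5, Atg7 and Atg14, beside 12.0% of 8892 genes past the count minimum and 8.09% of all 27025 genes with a window. The windows of Atg7 and Atg14 belong to starts inside the annotated genes: that of Atg7 lies at chr6:114670846-114671145, while GENCODE M21 starts the gene at 114643097, and that of Atg14, on the minus strand, lies at chr14:47568385-47568684, while the gene starts at 47570649. Atg3 holds it at 2 places, starting 94 and 71 bases before the start, and 1.36% of the genes past the minimum hold it at 2 or more. The stretch of Atg3 and the box of Atg5, both from the conjugation cascade, are shown with the motif in capitals.
Atg3, chr16:45158735-45158763, plus strand: CACGTGtcctgggagagtcgagtCACGTG
Atg5, chr10:44268315-44268340, plus strand: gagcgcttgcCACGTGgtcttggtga

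The genes with the motif lay on both sides of 0 as well. Of the 4 genes with the motif, Atg3 was at 1.12, Atg5 at 0.23, Atg7 at 0.22 and Atg14 at -0.22. Over all genes the median was 0.014 with the motif, 0.047 with 2 or more and 0.0044 without. The gene Slc35a5 starts on the opposite strand inside the same Atg3 window, at 45158706, and had 749 counts in TKO and 735 in WT, a log2 ratio of 0.093 (-0.056 to 0.24). The next gene past the count minimum on that side was Ccdc80, at -1.30 (-1.93 to -0.70), from 33 counts in TKO and 85 in WT. On the other side the nearest such genes, Abhd10 (0.24) and Phldb2 (-1.01), lie from 45729725 and 45746243 on, while Atg3 ends at 45188538. Abhd10 had 123 counts in TKO and 109 in WT (interval -0.14 to 0.63). Phldb2 had 27 in TKO and 57 in WT (interval -1.73 to -0.33). The nearest genes past the minimum around Atg16l1, namely Inpp5d, Gigyf2, Dgkd and Usp40, lay between -0.39 and -0.13. Each of these genes had a lower ratio than the autophagy gene it was looked up for. That was likely in advance, since Atg3 and Atg16l1 stood at percentiles 98.0 and 95.3 of all genes. No conclusion about either locus is drawn from it. The neighbours were looked up after the values were seen.

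Other genes of the pathway were described from 4 lists with 75 genes in all. The nutrient control list, with TFEB, TFE3, mTORC1 and their regulators, had 26 of 27 genes past the count minimum, 0 called higher and 1 called lower, with a median ratio of 0.024 on the log2 scale. The gene that was lower was Foxo3, a transcription factor that promotes autophagy genes, with 307 counts in TKO and 645 in WT, a log2 ratio of -1.01 (-1.21 to -0.81). It was close to the threshold and was not called lower with log2 of FPKM plus 1. Rptor, the substrate-binding subunit of mTORC1, had 816 counts in TKO and 1267 in WT, a log2 ratio of -0.57. Rragd, a GTPase that recruits mTORC1 to lysosomes, had 306 counts in TKO and 231 in WT, a log2 ratio of 0.47. Lamtor1, the lysosomal anchor of these GTPases and the most abundant gene of the list at 197 FPKM in TKO and 156 in WT, had 2490 counts in TKO and 2015 in WT, a log2 ratio of 0.37. With the length trend subtracted, Foxo3 was at -1.02, Rptor at -0.29, Rragd at 0.63 and Lamtor1 at 0.20.

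None of the 16 further genes of autophagosome formation passed the size rule, and their median on the log2 scale was 0.0088. Rubcnl, which encodes the autophagy enhancer Pacer, came close at 0.98 (0.45 to 1.53) from 87 counts in TKO and 46 in WT. Wdfy3, a large adaptor for protein aggregates, had 1744 counts in TKO and 3360 in WT, a log2 ratio of -0.88, and Epg5, a tether of autophagosomes and lysosomes, had 285 counts in TKO and 431 in WT, a log2 ratio of -0.53. Both have long transcripts, of 14277 and 9672 bases. Wdfy3 was at -0.36 and Epg5 at -0.14 with the length trend subtracted, and Rubcnl was at 0.95. Rab1a, a GTPase of early secretory traffic and the most abundant of the list at 118 FPKM in TKO and 102 in WT, had 3341 counts in TKO and 2952 in WT, a log2 ratio of 0.24.

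Fusion with lysosomes was covered by 17 genes, 0 of which passed the size rule and all of which lay within 0.5 of 0, with a median of 0.027. Ykt6, a SNARE of the fusion step, had 1469 counts in TKO and 1954 in WT, a log2 ratio of -0.35, and Vps33a of the tethering complex had 1176 counts in TKO and 1527 in WT, a log2 ratio of -0.31. Vamp8, the SNARE on the lysosomal side, had 1446 counts in TKO and 1223 in WT, a log2 ratio of 0.31. Lamp1, the abundant lysosomal membrane protein, at 1334 FPKM in TKO and 1192 in WT, had 31880 counts in TKO and 29037 in WT, a log2 ratio of 0.20. With the length trend subtracted, Ykt6 was at -0.40, Vps33a at -0.23, Vamp8 at 0.085 and Lamp1 at 0.13. The further cargo receptors had 14 of 15 genes past the minimum, 0 past the size rule and a median of 0.072. Among them Sec62, an endoplasmic reticulum receptor, had a log2 ratio of 0.41 with 1862 counts in TKO and 1466 in WT. The mitochondrial genes Bnip3 and Pink1 were at -0.35 and -0.33, with 292 and 916 counts in TKO and 389 and 1207 in WT. Fkbp8, the most abundant of the list at 121 FPKM in TKO and 108 in WT, had 2226 counts in TKO and 2038 in WT, a log2 ratio of 0.19. Sec62 was at 0.48, Bnip3 at -0.46, Pink1 at -0.39 and Fkbp8 at 0.077 with the length trend subtracted. Foxo3 was thus the one gene of the 4 lists past the size rule on counts.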

How the data were processed

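One table of 16463 genes was deposited, with values for each of the 2 libraries, and 0 columns of sample values were unmatched. The submitters' processing notes name RSEM 1.2.12, HISAT2 2.0.4, Bowtie2 2.2.5 and mm10. The annotation, the filters and the strand setting are stated in no source used here. Expected counts as deposited by the authors are estimates that need not be whole, and 21.1% of them in TKO and 21.3% in WT were fractional. FPKM is named per the file headers and is scaled by the authors for length and depth. The log2 ratio that the authors deposited is that of the FPKM values, TKO over WT. Their deposited p-value has no stated test, and the deposited FDR is handled as a score, as 713 entries are above 1.

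Rounded counts were scaled by TMM factors (edgeR 4.0.16 in R 4.3.3; 0.988 for TKO and 1.01 for WT). The log2 ratio had no pseudocount, but a count of 0 beside a count above 0 was replaced by 3 in the ratio. The 95% intervals are Clopper-Pearson intervals of the split of a gene's counts between the libraries. The intervals cover counting error alone and take reads as independent. PCR reads lacking molecular identifiers are not independent, so the intervals can be too narrow even for that error. No test was run, as there was 1 library of each genotype. The length trend was a lowess curve (span 0.3) of the ratio on log gene length over all genes past the minimum. Seed matches (7mer-m8) were searched in the longest 3' UTR of protein-coding transcripts of GENCODE M21. The ratio, size rule and trend were checked on simulated data. The 36 genes, the lists and the rule for naming genes were chosen with earlier results of these data known. Named with both counts were all 36 genes and, in each further list, up to 3 genes with the largest absolute ratio and the most abundant gene. Alternatives were scaling by library totals, DESeq2 1.42.0 size factors, no count minimum (genes above 0 in both libraries), a minimum of 100, log2 of FPKM plus 1 or plus 0.1 (genes with an FPKM of at least 1), a 99% interval, a 1.5-fold threshold, removal of the length trend and 6mer matches. One further list of cell type markers is not reported here.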

Additional observations from a re-analysis of the deposited data

How the results depend on the processing

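The log2 ratios of all 36 autophagy genes stayed within their 95% counting intervals under library totals, DESeq2 size factors, no count minimum, a minimum of 100 and both FPKM settings. Removing the length trend turned the sign of Ulk1 (0.00037), Atg2a (0.054), Atg2b (0.090) and Map1lc3b (-0.00083), moved 7 other genes outside their intervals and gave 4 genes with an interval below 0 in place of 9, of which Pik3c3 and Nbr1 were among the 9. With a threshold of 1.5-fold, 2 genes were higher (Atg3 and Atg16l1), where 591 of 11525 genes were. With log2 of FPKM plus 1, 0 genes of the nutrient control list were lower in place of Foxo3. The 6mer matches were found in 18 of the 36 genes for miR-17, beside 42.2% of all genes, 13 for miR-18 (36.1%, beside 36.2%), 13 for miR-19 (36.1%, beside 27.6%) and 8 for miR-25/92 (22.2%, beside 26.1%). The median of the 36 genes lay between -0.050 and -0.013 over these settings. No paired analysis was possible because each genotype had 1 library. With 1 library per genotype, the spread between cultures is unknown, and any of the ratios may lie within it.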
